A study of Mus musculus with 12 samples.

Results

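Livers of mice lacking both Atf3 and Cpt2 were compared with livers lacking Cpt2 alone, across all genes of the deposited count table. The comparison used 8 of the 12 livers of the series, namely 4 labelled ATF3;CPT2 liver-specific double KO (DKO) and 4 labelled CPT2 liver-specific KO (SKO), and every result was computed with and without DKO replicate 4. The remaining 4 livers, labelled CPT1A/1B/2 triple floxed control and called WT here, were used to show the level of a gene in a liver with no deletion named. Other assays of the study used controls floxed for Atf3 and Cpt2, and whether the sequenced controls shared that background is not given in the sources used here. All mice were fasted for 24 h, and total RNA of whole liver was sequenced. In the study's KO lines, floxed genes are deleted by Cre under the albumin promoter, which acts in hepatocytes. Whether other liver cells keep the genes was not tested. The floxed Atf3 allele came from a C57BL/6N line of the EUCOMM consortium that had been crossed to Flpe deleter mice, and the other lines are described as C57BL6. The labels give no age, sex or litter for a liver. They do not say that each library came from a separate animal, so p-values measure the spread between these libraries.

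ATF3 is a transcription factor of the basic leucine zipper family that is low in unstressed cells and is induced by nutrient and organelle stress. It binds cAMP response elements and AP-1 sites as a homodimer or with partners such as JUN, and it can repress or activate. CPT2 sits in the inner mitochondrial membrane and is needed for long-chain fatty acids to enter mitochondrial beta-oxidation.

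Total counts per liver were 14710304 to 20030055, and a gene with 0 counts has an upper limit of 3 counts, at most 0.196 CPM (the count scaled to a common library size, with TMM factors over the 12 livers), for counting error only. The study describes its sequenced mice as male. In 6 of the 8 libraries compared, counts on Ddx3y, Eif2s3y, Kdm5d and Uty were 2849 to 4294 and Xist counts at most 14. SKO replicate 3 had 18063 Xist and 2 Y-linked counts, and DKO replicate 4 had 20855 and 0, so both go against that description and calls are also given for the livers with Y-linked counts alone. Cpt2 was at 108 to 157 CPM in SKO and 101 to 127 in DKO livers, below the 199 to 252 of WT livers. Hepatocyte markers were abundant in every liver, with albumin mRNA (Alb) at 22221 to 44343 CPM in SKO, 24999 to 28505 in DKO replicates 1 to 3 and 75278 in DKO replicate 4.

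Few genes separated DKO from SKO livers once all genes were accounted for. Of 14363 genes tested in all 8 livers, 3 had an adjusted p-value under 0.05 (0.0209% of genes, edgeR quasi-likelihood test with Benjamini-Hochberg adjustment), with Lars2 higher (0.00696%) and Bmper and H2-T-ps lower (0.0139%) in DKO livers. Without adjustment, at p under 0.05, 590 genes were higher (4.11%) and 342 lower (2.38%). Leaving out DKO replicate 4 gave 15 genes of 14589 at the adjusted threshold (0.103%), 9 higher (0.0617%) and 6 lower (0.0411%), with the same 3 among them, as well as Fam71a and Gm38161, which did not pass the filter on low counts in all 8 livers, and 550 higher (3.77%) and 504 lower (3.45%) at the unadjusted one. With only the livers that had Y-linked counts, 3 per genotype, 21 of 14358 genes passed (0.146%), 13 higher (0.0905%) and 8 lower (0.0557%), of which 12 were also among the 15, and 562 (3.91%) and 433 (3.02%) were higher and lower at the unadjusted one. Fam71a and Gm38161 are among the 21 and the 12, and they passed the filter there only by way of the DKO livers in which they were high. The adjusted threshold was passed by 0 genes when DKO replicate 1 or 3, or SKO replicate 2, 3 or 4, was left out instead (unadjusted p under 0.05 for 722 to 955 genes), and DESeq2 called 97 genes in all 8 livers. Among the 14353 genes tested in both fits, 342 were higher (2.38%) and 240 lower (1.67%) at an unadjusted p under 0.05 in each. The groups of 4 did not overlap for 332 genes higher (2.31%) and 242 lower (1.68%) in DKO livers.

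**Figure D1:**
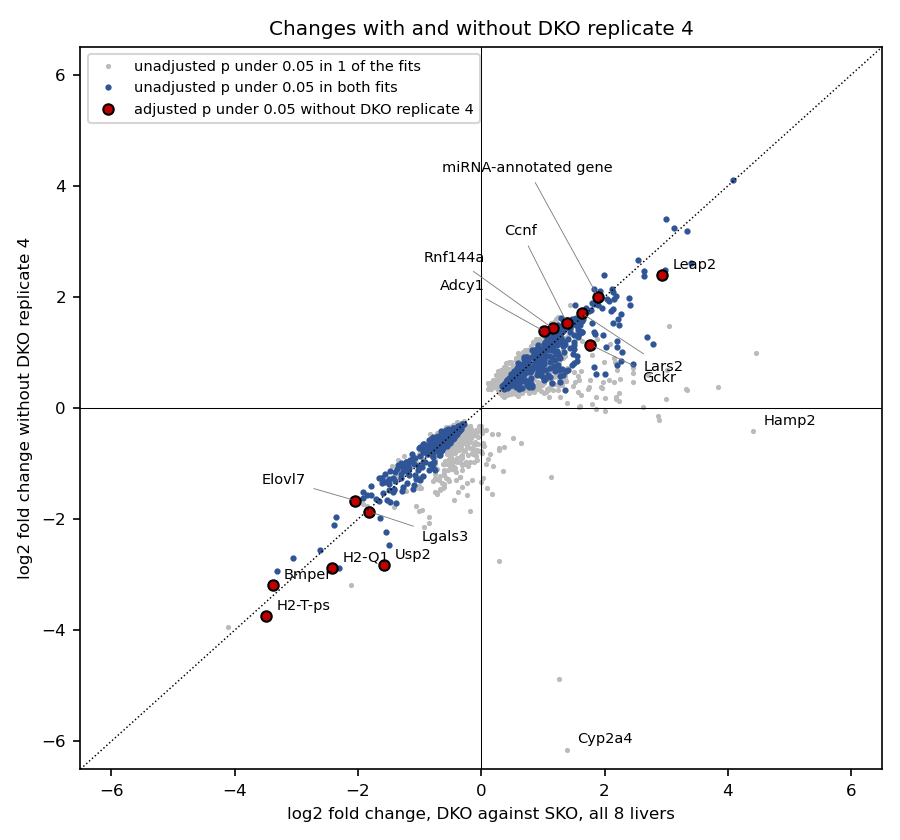
Log2 fold change of DKO over SKO in all 8 livers (x axis) and without DKO replicate 4 (y axis) for genes with an unadjusted p under 0.05 in either fit, where red points had an adjusted p under 0.05 without that liver. Most points follow the dotted line of equal values, while Cyp2a4 and Hamp2 change sign when the liver is left out, and Fam71a and Gm38161 are not drawn because they did not pass the filter on low counts in all 8 livers.

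The locus of the deleted gene held some of the clearest differences. Atf3 (ENSMUSG00000026628, chromosome 1 from 190902493 to 190950236, minus strand, coordinates as the count table gives them) was at 24.5, 53.4, 29.2 and 14.5 CPM in SKO replicates 1 to 4 and at 7.92, 10.7, 13.6 and 0.2702 CPM in DKO replicates 1 to 4. The groups did not overlap, but DKO replicates 1 to 3 lay above the 1.11 to 2.16 CPM of WT livers and DKO replicate 4 below it. The log2 fold change was −1.91 (SE 0.73) with an adjusted p of 0.701, and −1.51 (SE 0.37) with 0.2502 without DKO replicate 4 (edgeR, Benjamini-Hochberg). The table counts whole genes, so reads on the deleted part of Atf3 cannot be separated from the rest. Fam71a (ENSMUSG00000091017, chromosome 1 from 190894781 to 190897014), a protein-coding gene on the same strand, 5.48 kb past the 3′ end of Atf3, was at 0 counts in every SKO liver and at 22.2, 24.6, 36.4 and 0.486 CPM in DKO replicates 1 to 4. In WT livers it was at 0 to 0.221 CPM, so the level of DKO replicates 1 to 3 was not seen in any other liver. Pooled over DKO replicates 1 to 3 it was at least 672-fold higher than the floor of 3 counts over the 4 SKO livers. Gm38161, a long noncoding RNA gene on the other strand 36.3 kb away, was at 0 in SKO and WT livers and at 11.6, 9.35, 11.1 and 0 CPM in DKO replicates 1 to 4, at least 261-fold higher in DKO replicates 1 to 3 by the same floor. Neither gene passed the filter on low counts in all 8 livers, and where the filter let them in it was by way of the 3 livers in which they were high, so no p-value is given for them. DKO replicate 4 thus had next to no counts on Atf3 or on either of these neighbours.

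Other genes near Atf3 showed no such pattern. Of 31 other annotated genes within 500 kb, 13 were tested without DKO replicate 4, and apart from Fam71a and Gm38161 only Flvcr1, a heme and choline transporter gene 144 kb away, had an unadjusted p under 0.05. It was at 8.13, 8.09, 9.42 and 9.82 CPM in SKO and 6.86, 5.04, 6.59 and 3.68 CPM in DKO replicates 1 to 4, without overlap, at a log2 fold change of −0.68 (SE 0.22) (adjusted p = 0.607, edgeR with Benjamini-Hochberg adjustment). The closest tested gene on the other side of Atf3, the noncoding D730003I15Rik at 6.37 kb, had a log2 fold change of −0.09. Batf3, which encodes a related leucine zipper factor 61.4 kb away, was at 0.391 to 1.98 CPM in SKO against 0.483 to 1.13 in DKO livers.

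**Figure D2:**
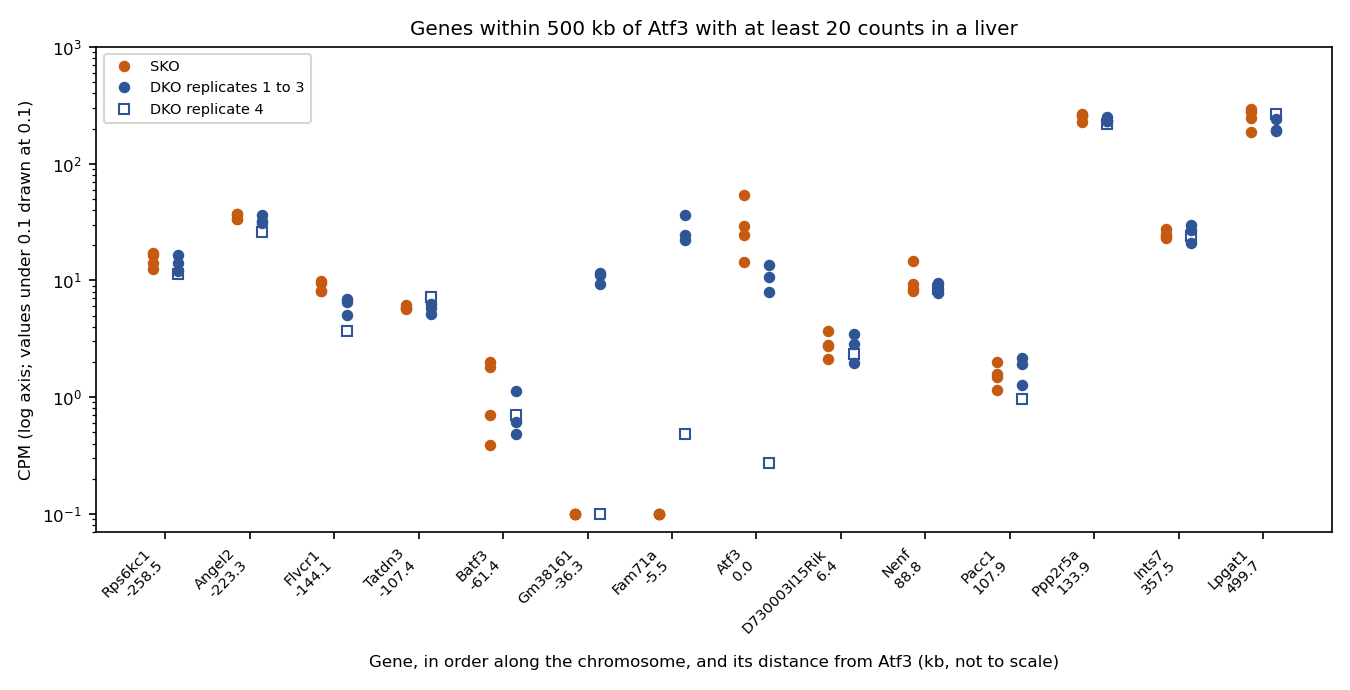
CPM (log axis) of Atf3 and of the genes within 500 kb that reached 20 counts in a liver, in chromosome order with the distance from Atf3 in kb, for 4 SKO livers (orange), DKO replicates 1 to 3 (filled blue) and DKO replicate 4 (open square), with values under 0.1 drawn at 0.1. Fam71a and Gm38161 were high in DKO replicates 1 to 3 and at or near 0 elsewhere. Apart from these genes and Atf3 itself, Flvcr1 was the only gene drawn with an unadjusted p under 0.05 without DKO replicate 4 (edgeR).

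Genes that were lower in DKO livers included the secreted BMP regulator Bmper, MHC class I region genes, galectin-3, an elongase and a lipoprotein receptor gene, as well as a TEC transcript and pseudogenes. In bulk liver, fewer cells of a type and less RNA per cell cannot be told apart for any of them. Among genes with a mean of at least 1 CPM, an unadjusted p under 0.01 with and without DKO replicate 4 and no overlap between the groups, 54 were lower (0.376%) and 89 higher (0.62%) in DKO livers. The secreted regulator of BMP signalling Bmper (ENSMUSG00000031963, chromosome 9 from 23134372 to 23396496) was at 7.43, 16.5, 20.4 and 14.5 CPM in SKO replicates 1 to 4 and 1.16, 2.49, 1.29 and 0.757 CPM in DKO replicates 1 to 4. Every DKO liver was below every SKO liver and inside the 0.166 to 2.74 CPM of WT livers. Its adjusted p was 0.0283 in all 8 livers, 0.00742 without DKO replicate 4 and 0.00890 in the livers with Y-linked counts (edgeR, Benjamini-Hochberg).

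A pair of MHC class I region genes on chromosome 17 fell as well. H2-T-ps, a pseudogene (ENSMUSG00000073405, chromosome 17 from 36420126 to 36422550), was at 4.42, 6.37, 3.67 and 4.02 CPM in SKO and 0.193, 0.546, 0.309 and 0.595 in DKO replicates 1 to 4, with adjusted p-values of 0.0283 and, without DKO replicate 4, 0.00340 (edgeR, Benjamini-Hochberg). H2-Q1 (ENSMUSG00000079507, chromosome 17 from 35539381 to 35544075), a nonclassical class I gene 876 kb from it, was at 11.97, 14.8, 13.3 and 15.5 CPM in SKO and 0.966, 1.88, 2.83 and 4.65 in DKO livers, with WT livers at 1.05 to 2.86. The ranges did not overlap, and the log2 fold change was −2.42 (SE 0.39) with an adjusted p of 0.167, or −2.88 (SE 0.31) with 0.00340 without DKO replicate 4 (edgeR, Benjamini-Hochberg). Its neighbour H2-Q2 was at 1.79, 1.01, 0.776 and 1.79 CPM in SKO and 0.2899, 0.303, 0.772 and 0.378 in DKO livers (unadjusted p = 0.00511, edgeR, adjusted p = 0.472). These genes have near-identical relatives, and the counting could have split or shared their reads. Over 21 tested genes of MHC class I and antigen presentation, 1 was higher (the proteasome subunit gene Psmb9) and 2 lower (H2-Q1 and H2-Q2) at an unadjusted p under 0.05, and the median log2 fold change was 0.18, or −0.12 without DKO replicate 4, where 0 were higher and 2 lower. Over all genes 4.11% were higher and 2.38% lower at that threshold, or 3.77% and 3.45% without that liver.

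Lgals3 and Elovl7 passed the adjusted threshold once DKO replicate 4 was left out. Lgals3 (ENSMUSG00000050335, chromosome 14 from 47605208 to 47623617), the galectin-3 gene, was at 24.6, 24.2, 13.3 and 20.3 CPM in SKO and 4.06, 4.73, 8.24 and 6.32 CPM in DKO replicates 1 to 4. All DKO livers were lower, at a log2 fold change of −1.81 (SE 0.27), and leaving out DKO replicate 4 moved the adjusted p from 0.112 to 0.0465 (edgeR, Benjamini-Hochberg). Elovl7 (ENSMUSG00000021696, chromosome 13 from 108350938 to 108422217), an elongase of very long-chain fatty acids, was at 26.3, 30.5, 37.99 and 33.9 CPM in SKO and 8.55, 8.19 and 13.8 in DKO replicates 1 to 3. In DKO replicate 4 it was at 0.703 CPM, inside the 0.127 to 0.783 of WT livers, and its log2 fold change was −2.04 (SE 0.57) with that liver and −1.67 (SE 0.22) without it (adjusted p = 0.469 and 0.0152, edgeR, Benjamini-Hochberg). Both genes also passed in the livers with Y-linked counts (adjusted p = 0.00960 and 0.0202 in the same test). The study itself names Elovl7 as significantly changed in its RNA-seq, together with Clpx and the ApoB receptor gene (Apobr), which are described below. It also measured these genes and Gpnmb by RT-qPCR.

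Further genes were lower without overlap but had adjusted p-values above 0.05 in both fits. Apobr, the receptor of ApoB48-containing lipoproteins, was at 6.66, 11.2, 6.57 and 7.64 CPM in SKO and 2.37, 1.82, 3.55 and 1.9997 in DKO livers, and its adjusted p was 0.167 with and 0.0838 without DKO replicate 4 (edgeR, Benjamini-Hochberg). Mmp27, a matrix metalloproteinase gene, was at 8.84, 4.91, 2.12 and 10.04 in SKO and 1.498, 0.728, 1.03 and 0.919 in DKO livers. In the livers with Y-linked counts, a fit without SKO replicate 3, which was the lowest of its group, Mmp27 had an adjusted p of 0.00960 (edgeR, Benjamini-Hochberg). Fabp4, a fatty acid binding protein best known from adipocytes and macrophages, was at 31.3, 86.1, 59.01 and 24.8 CPM in SKO and 18.9, 17.4, 24.2 and 8.27 in DKO livers. The glycerol channel gene Aqp3 was at 3.07 to 9.32 CPM against 0.378 to 2.61, and the keratin gene Krt79 at 1.28 to 2.69 against 0.216 to 1.01. Gm45819, a transcript still to be experimentally checked (biotype TEC), was at 3.73 to 5.41 against 0.2702 to 1.55 CPM, and the pseudogene Cyp2d41-ps, whose WT livers were at 2.61 to 7.44, at 1.398 to 2.69 against 0.425 to 0.919. Cd63, a tetraspanin of late endosomes, was chosen after its values were seen and was at 41.3, 47.6, 43.7 and 53.1 CPM in SKO and 18.3, 21.0, 29.2 and 4.54 in DKO livers. The log2 fold change of Cd63 was −1.35 (SE 0.41) with an adjusted p of 0.546 and −1.03 (SE 0.18) with 0.0803 without DKO replicate 4 (edgeR, Benjamini-Hochberg).

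**Figure D3:**
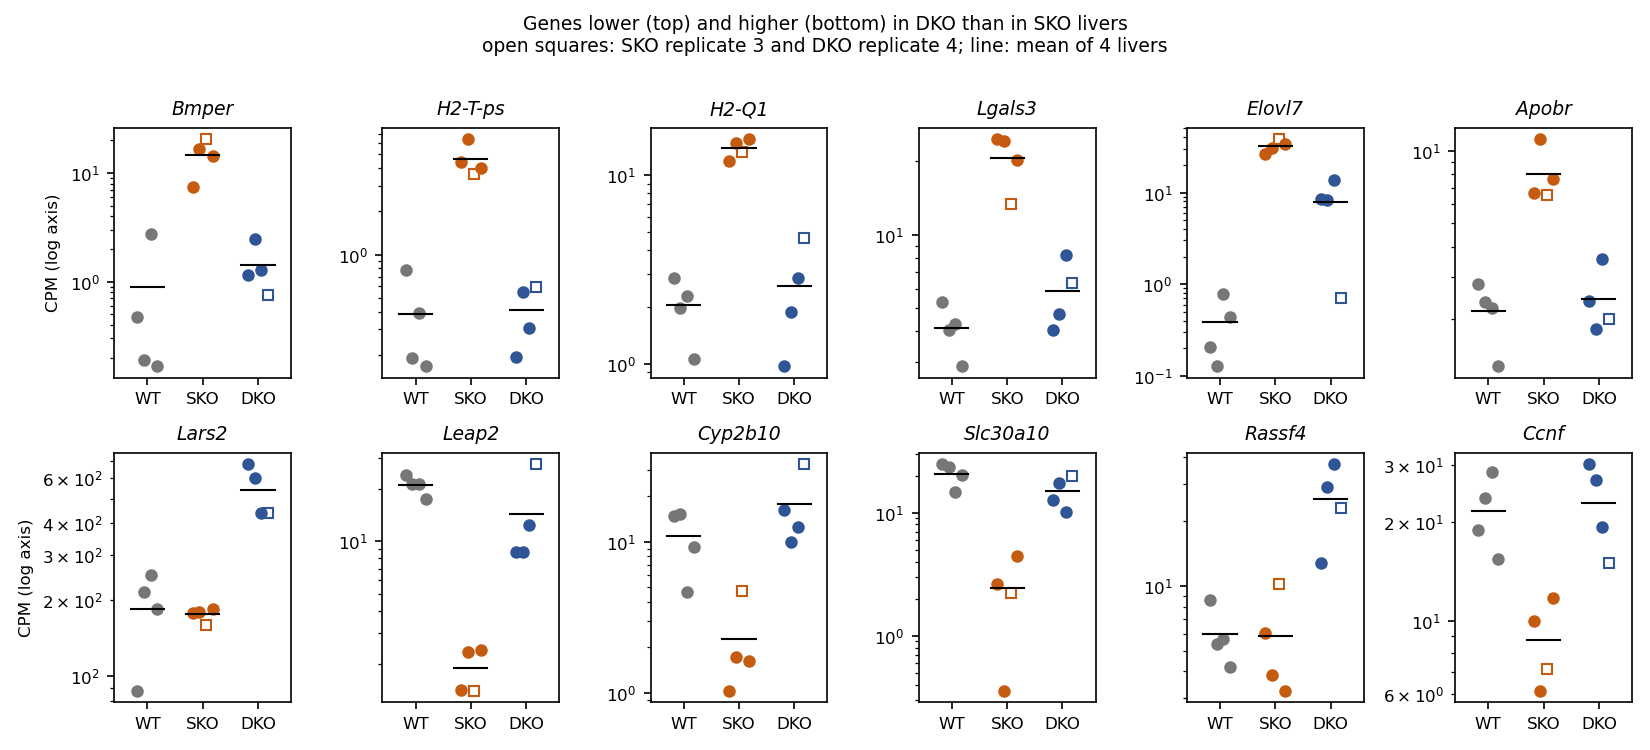
CPM (log axis) per liver in WT, SKO and DKO groups of 4 for genes lower (top) and higher (bottom) in DKO livers, with the mean as a line and SKO replicate 3 and DKO replicate 4 as open squares. In each panel the DKO and SKO livers do not overlap, and DKO replicate 4 lay at 0.703 CPM of Elovl7 and 27.6 CPM of Leap2, away from the other DKO livers.

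Because ATF3 binds cAMP response elements (TGACGTCA), their core site (TGACG) and AP-1 sites (TGANTCA), promoter sequence is shown for Elovl7, Cd63, Apobr and Bmper, genes lower in DKO livers that differ in these letters. Each run holds the 250 bases before the start site in RefSeq for GRCm38.p6, plus strand, with matches on either strand in capitals.
Elovl7, chr13:108214154-108214403: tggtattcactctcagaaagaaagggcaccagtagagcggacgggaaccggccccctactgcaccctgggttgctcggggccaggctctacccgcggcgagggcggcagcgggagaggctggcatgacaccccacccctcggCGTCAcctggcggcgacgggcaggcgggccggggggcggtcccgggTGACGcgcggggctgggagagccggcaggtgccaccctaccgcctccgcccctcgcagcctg
Cd63, chr10:128909095-128909344: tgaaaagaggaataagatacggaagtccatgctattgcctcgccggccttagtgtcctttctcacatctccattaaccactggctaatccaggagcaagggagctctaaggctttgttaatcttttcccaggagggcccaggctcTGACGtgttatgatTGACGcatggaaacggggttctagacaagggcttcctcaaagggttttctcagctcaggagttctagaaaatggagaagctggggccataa
Apobr, chr7:126584758-126585007: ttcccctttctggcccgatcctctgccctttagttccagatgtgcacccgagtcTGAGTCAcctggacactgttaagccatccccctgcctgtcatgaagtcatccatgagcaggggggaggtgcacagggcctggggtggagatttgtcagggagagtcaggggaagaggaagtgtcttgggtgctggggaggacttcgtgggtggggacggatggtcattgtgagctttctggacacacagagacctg
Bmper, chr9:23222826-23223075: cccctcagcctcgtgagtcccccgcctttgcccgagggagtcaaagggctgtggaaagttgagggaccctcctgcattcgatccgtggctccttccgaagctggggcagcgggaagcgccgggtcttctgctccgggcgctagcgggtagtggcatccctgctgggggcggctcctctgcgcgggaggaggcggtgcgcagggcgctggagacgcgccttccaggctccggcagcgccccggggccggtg
The Elovl7 promoter held core sites starting 108 and 62 bases before the start, that of Cd63 core sites at 105 and 91 bases, and that of Apobr an AP-1 site at 196 bases. The Bmper window held none of the motifs searched. Such matches were frequent. Over 300-base windows (250 before and 50 after the start) of all 13270 promoters of tested genes, the core site was found in 30.02%, the AP-1 site in 5.43% and the full element in 2.83%. For the 326 promoters of genes that were lower in DKO at this unadjusted threshold of 0.05 the shares were 28.8%, 4.29% and 2.15%, and among 503 of genes higher they were 24.5%, 6.76% and 1.79%. The composite site of ATF4 and C/EBP factors (TGATGNAA) stood at 2.43% of tested, 2.15% of lower and 1.39% of higher genes. Without DKO replicate 4 the core, AP-1, full and composite sites were found in 25%, 6.197%, 1.71% and 2.56% of promoters of lower genes and in 24.8%, 5.56%, 3.47% and 3.47% of those of higher genes. The AP-1 and composite sites in lower genes and the full and composite sites in higher genes thus went from below to above their shares in all tested genes when that liver was left out. These were few promoters, with 14 and then 29 for AP-1 and 7 and then 12 for composite sites in lower genes. In higher genes they were 9 and then 15 for full and 7 and then 15 for composite sites. The sets of genes differed between the fits, and the differences in share were not tested.

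Genes higher in DKO livers included a peptide hormone antagonist, regulators of glucose and glycogen handling and a drug-inducible P450, most of them with lower levels in SKO than in WT livers. Leap2 (ENSMUSG00000036216, chromosome 11 from 53313008 to 53313997), which encodes a liver peptide that opposes ghrelin at its receptor, was at 1.41, 2.33, 1.398 and 2.399 CPM in SKO replicates 1 to 4 and at 8.75, 8.74, 12.4 and 27.6 in DKO replicates 1 to 4. The groups did not overlap, and DKO replicates 1 to 3 stayed below the 17.5 to 23.8 CPM of WT livers. The log2 fold change was 2.94 (SE 0.43) with an adjusted p of 0.1005, and 2.39 (SE 0.27) with 0.00411 without DKO replicate 4 (edgeR, Benjamini-Hochberg). Gckr (ENSMUSG00000059434, chromosome 5 from 31454787 to 31484658), the regulatory protein that holds glucokinase inactive in the nucleus, was at 56.6, 34.2, 53.2 and 43.8 CPM in SKO and 104, 99.7, 109 and 319.8 in DKO livers, with 202 to 247 in WT. DKO replicate 4 stood apart from its group, above the WT range, and the adjusted p was 0.396 with it and 0.0471 without it (edgeR, Benjamini-Hochberg).

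Cyp2b10, the P450 gene best known as a target of the nuclear receptor CAR, was at 1.02, 1.72, 4.71 and 1.62 CPM in SKO and 16.2, 9.95, 12.6 and 32.8 in DKO livers. It had adjusted p-values of 0.182 in all 8 livers, 0.0646 without DKO replicate 4 and 0.00122 in the livers with Y-linked counts (edgeR, Benjamini-Hochberg), where SKO replicate 3, the highest SKO liver, is also left out. Slc30a10, a manganese exporter gene, was at 2.63, 0.354, 2.23 and 4.46 CPM in SKO and 12.7, 17.4, 10.1 and 19.8 in DKO livers, at a log2 fold change of 2.65 (SE 0.53). Keg1, a glycine N-acyltransferase-like gene, was at 0.828 to 7.43 against 9.29 to 35.6 CPM, and Ppp1r3c, which targets protein phosphatase 1 to glycogen, at 0.455 to 2.57 against 3.28 to 14.6. For these 3 genes the adjusted p-values were 0.272, 0.432 and 0.432 in all 8 livers (edgeR, Benjamini-Hochberg), with WT ranges of 14.6 to 24.8, 27.4 to 50.4 and 32.4 to 113 CPM. Rassf4, a Ras association domain gene, differed in that WT livers (4.203 to 8.58 CPM) lay with SKO livers (6.02, 3.84, 10.2 and 3.24) and below DKO livers (12.9, 29.01, 37.01 and 23.1). Its log2 fold change was 2.12 (SE 0.41), with an adjusted p of 0.226, 0.1205 without DKO replicate 4 and 0.0202 in the livers with Y-linked counts (edgeR, Benjamini-Hochberg). The noncoding genes Gm36041, Gm48633 and ENSMUSG00000120481 were also among the 12 largest differences, at 0.759 to 3.403 against 6.74 to 11.03, 1.62 to 2.85 against 4.19 to 20.4 and 0.152 to 1.09 against 1.09 to 5.999 CPM.

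Some genes separated DKO replicates 1 to 3 from SKO livers and were lower in DKO replicate 4 than in the rest of its group. Ccnf (ENSMUSG00000072082, chromosome 17 from 24441172 to 24470458), the cyclin F subunit of an SCF ubiquitin ligase, was at 9.99, 6.12, 7.14 and 11.8 CPM in SKO and 30.1, 27.01, 19.4 and 15.1 in DKO livers (adjusted p = 0.226 with and 0.0471 without DKO replicate 4, edgeR, Benjamini-Hochberg). Rnf144a (ENSMUSG00000020642, chromosome 12 from 26350963 to 26465253), another ubiquitin ligase gene, was at 8.71, 5.51, 8.799 and 11.5 CPM in SKO and 23.05, 25.8 and 21.4 in DKO replicates 1 to 3 but 7.24 in DKO replicate 4. Adcy1 (ENSMUSG00000020431, chromosome 11 from 7013489 to 7128506), a calcium-stimulated adenylate cyclase gene, was at 2.56, 2.63, 2.38 and 2.12 CPM in SKO, 6.62, 6.07 and 6.38 in DKO replicates 1 to 3 and 0.703 in DKO replicate 4. The latter value lay below every SKO liver and below the 0.8295 to 0.978 CPM of WT livers. Without DKO replicate 4 both had an adjusted p of 0.0465, and with it 0.551 and 0.789 (edgeR, Benjamini-Hochberg), so their calls rest on leaving that liver out.

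The protein-coding gene Lars2 was higher in DKO livers at the adjusted threshold, and the nuclear RNAs Malat1 and Kcnq1ot1 at the unadjusted one in both fits, while Neat1 overlapped between the groups with and without DKO replicate 4. Lars2 (ENSMUSG00000035202, chromosome 9 from 123195992 to 123291731), which encodes the mitochondrial leucyl-tRNA synthetase, was at 178, 179, 159 and 184 CPM in SKO and 683, 605, 439 and 439 in DKO replicates 1 to 4, while WT livers were at 87.3 to 250.1. All DKO livers were above all SKO and WT livers, and the adjusted p was 0.0283, 0.00340 without DKO replicate 4 and 0.00789 in the livers with Y-linked counts (edgeR, Benjamini-Hochberg). WT replicate 1, lowest in Lars2, also had the lowest share of counts on ribosomal RNA genes (0.452%, against 1.15 to 1.36% in other WT livers). DKO replicate 1, highest in Lars2, had the lowest such share of its group (1.40%). The relation between Lars2 counts and ribosomal RNA was not tested. The other 16 tested mitochondrial tRNA synthetase genes had 0 members with an unadjusted p under 0.05 in edgeR, in either direction. Malat1, an abundant nuclear RNA, was at 507, 406, 630.5 and 618 CPM in SKO and 1010.1, 1192, 1455 and 1433 in DKO livers, without overlap (log2 fold change 1.24 (SE 0.21), adjusted p = 0.182 and 0.0803 without DKO replicate 4, edgeR, Benjamini-Hochberg). Kcnq1ot1, the antisense transcript of the imprinted Kcnq1 domain, was at 4.42, 5.11, 7.25 and 4.63 CPM in SKO and 12.9, 11.8, 12.1 and 10.8 in DKO livers, and whether the counting used strand is not given in the sources used here. Its adjusted p was 0.182 in all 8 livers and 0.02003 in the livers with Y-linked counts (edgeR, Benjamini-Hochberg). Rn7sk, the RNA that holds the elongation factor P-TEFb inactive, was at 0.621 to 1.67 against 2.46 to 4.19 CPM, though copies of it elsewhere in the genome could have taken some of its reads. Neat1, the scaffold RNA of paraspeckles, was at 1005, 895, 1123 and 2220.3 CPM in SKO and 3292, 1377 and 2370.3 in DKO replicates 1 to 3 and 299.7 in DKO replicate 4. DKO replicates 2 and 4 were below SKO replicate 4, so the groups overlapped with and without DKO replicate 4. ENSMUSG00002076173, a gene on chromosome 16 from 10961989 to 10962045 that the table annotates as a miRNA, was at 18.8, 12.5, 12.3 and 21.7 CPM in SKO and 56.6, 54.9, 85.8 and 45.02 in DKO livers (adjusted p = 0.0557, and 0.00583 without DKO replicate 4, edgeR, Benjamini-Hochberg).

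By annotated class, the balance of higher to lower genes was uneven. Of 235 TEC transcripts tested, 39 had an unadjusted p under 0.05 with higher and 1 with lower levels in DKO livers (16.6% and 0.426%), and without DKO replicate 4 the numbers were 35 and 3. Over all genes 4.11% were higher and 2.38% lower at that threshold, or 3.77% and 3.45% without DKO replicate 4. Of 1157 long noncoding RNA genes, 100 were higher and 14 lower (8.64% and 1.21%), or 96 and 15 without that liver. Protein-coding genes, 12288 tested, had 419 higher and 303 lower (3.41% and 2.47%), or 381 and 445. The median log2 fold changes of the 3 classes were 0.39, 0.17 and 0.00. Ribosomal RNA genes had a higher mean share of counts in DKO livers, with overlap between the groups, and their part in this pattern was not tested. They took 1.32, 0.713, 0.945 and 1.46% of counts in SKO and 1.405, 2.69, 1.797 and 2.805% in DKO replicates 1 to 4 (two-sided exact permutation test, 70 regroupings, p = 0.0571, adjusted over 5 shares p = 0.0952). The share on TEC genes was 0.0469 to 0.0634% of counts in SKO against 0.0664 to 0.0861% in DKO livers (exact permutation test, p = 0.0286, the smallest p that 4 against 4 livers allow, adjusted p = 0.0714). Mitochondrial rRNA took 0.0644 to 0.163% of counts in SKO against 0.04897 to 0.0603% in DKO livers, with the same exact permutation p-values. The shares on long noncoding RNA genes (0.732 to 0.920% against 0.8202 to 1.1998%) and on protein-coding mitochondrial genes (4.5003 to 5.88% against 4.11 to 4.699%) overlapped between the groups (exact permutation p = 0.171 for each, adjusted p = 0.171).

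The targets of PPAR alpha, the nuclear receptor that drives fatty acid oxidation in fasting, leaned lower in DKO livers. The study had reported genes of PPAR signalling and fatty acid metabolism as downregulated in this comparison. Of 39 tested, 10 were lower and 0 higher at an unadjusted p under 0.05 (2.38% and 4.11% over all genes), and 12 lower and 1 higher without DKO replicate 4 (3.45% and 3.77% over all genes), with median log2 fold changes of −0.36 and −0.28 where all tested genes had 0.01 and −0.01. The lower members were Fabp4, the carnitine transporter gene Slc22a5, the thioesterases Acot1 and Acot2, the peroxisome proliferation gene Pex11a, the thiolase Acaa1b, Cyp4a31, the lipase Mgll, the fatty acid uptake gene Cd36 and the glycerol channel Aqp7. Slc22a5 was at 222, 286, 280.1 and 207 CPM in SKO and 168, 203, 147 and 152 in DKO livers, without overlap (log2 fold change −0.57 (SE 0.17)). Pex11a was at 763, 788, 944 and 810.0 CPM in SKO and 687, 604, 595 and 347 in DKO livers. Acot2 was at 285, 523, 350.1 and 201 CPM in SKO and 151, 208, 156 and 42.4 in DKO livers, where only DKO replicate 2 reached into the SKO range. No member passed the adjusted threshold. In both genotypes the 3 genes were above the WT levels, which were 66.1 to 88.6, 141 to 222 and 8.21 to 15.3 CPM. The member that was higher without DKO replicate 4 was Fgf21, a fasting hormone gene chosen after its values were seen, at 49.5, 70.1, 62.6 and 105 CPM in SKO and 81.2, 145, 175 and 25.2 in DKO livers. Clpx, a mitochondrial protease subunit gene, was higher without overlap, at 87.4, 71.6, 72.98 and 134 CPM in SKO and 247, 359.7, 151 and 149 in DKO livers.

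Genes of amino acid breakdown and the urea cycle leaned higher. Of 47 tested, 14 were higher and 0 lower at an unadjusted p under 0.05 (4.11% and 2.38% over all genes), and 8 higher and 1 lower without DKO replicate 4 (3.77% and 3.45%), with medians of 0.54 and 0.14. Bhmt, which remethylates homocysteine with betaine, was at 362, 665, 1294 and 904 CPM in SKO and 2977, 1813, 3536 and 2713 in DKO replicates 1 to 4. Every DKO liver was above every SKO liver and below the 5295 to 7869.5 CPM of WT livers, and the log2 fold change was 1.78 (SE 0.37) with and 1.77 (SE 0.37) without DKO replicate 4. Its adjusted p was 0.314, 0.155 without that liver and 0.0448 in the livers with Y-linked counts (edgeR, Benjamini-Hochberg). The kynurenine pathway gene Haao was at 55.1, 28.4, 38.4 and 29.5 CPM in SKO, 78.1, 76.7 and 89.6 in DKO replicates 1 to 3 and 447 in DKO replicate 4. Kynu of the same pathway was at 54.99 to 71.5 against 75.4 to 177 CPM, without overlap, and the cystathionine synthase gene Cbs at 119 to 197 against 186 to 631. Without DKO replicate 4 the log2 fold changes of these 3 genes went from 2.21, 0.91 and 1.20 to 1.10, 0.59 and 0.67.

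Some detoxification genes were higher as well, with smaller list medians without DKO replicate 4. Of 22 xenobiotic P450 genes tested, 8 were higher and 0 lower (4.11% higher over all genes). In the fit without DKO replicate 4 the counts were 3 (Cyp1a2, Cyp2b10 and Cyp2f2) and 0 (3.77% higher over all genes), and the median log2 fold change went from 0.51 to 0.12, with 21 and then 13 of the 22 above 0. Cyp1a2, which oxidizes caffeine and aromatic amines, was at 115, 48.2, 67.8 and 70.9 CPM in SKO, 154, 128 and 124 in DKO replicates 1 to 3 and 1018 in DKO replicate 4. Of 27 glutathione transferase and NRF2 target genes, 9 were higher and 1 lower (Gsta1), or 7 and 2 without that liver, with medians of 0.47 and 0.26. Of the mu-class genes Gstm1 to Gstm4 and Gstm6 were higher without overlap, Gstm6 at a log2 fold change of 1.28, or 0.47 without DKO replicate 4, while Gstm5 had log2 fold changes of −0.41 and, without DKO replicate 4, −0.70. Gstm1 was at 326 to 592 against 662 to 1730.2 CPM, Gstm2 at 10.1 to 19.3 against 24.4 to 53.6, Gstm3 at 3.31 to 7.48 against 9.905 to 103 and Gstm4 at 38.5 to 55.1 against 61.5 to 86.6. These genes are close in sequence, so reads may be shared among them. For bile acids, the export pump gene Abcb11 was at 10.9 to 49.7 CPM in SKO and 48.5, 88.6, 60.4 and 486 in DKO replicates 1 to 4, and Nr0b2, the repressor SHP of bile acid synthesis, at 0.112 to 3.78 and 0.193, 4.79, 4.22 and 26.6, both with overlap.

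Several lists had higher medians with DKO replicate 4 than without it. Over all genes 4.11% were higher and 2.38% lower with that liver and 3.77% and 3.45% without it. Type I interferon response genes (32 tested) had 5 higher and 0 lower with a median log2 fold change of 0.80, and 1 higher and 0 lower with −0.01 without that liver. Cholesterol synthesis genes (23 tested) went from 4 higher and 0 lower, with a median of 0.73, to 0 higher and 4 lower with −0.21. Lipogenesis genes (15 tested) had 3 higher and a median of 0.53, against 1 and −0.04. Pericentral and periportal genes, 13 tested each, had medians of 0.69 and 0.54 with DKO replicate 4 and 0.07 and 0.07 without it. Complement and coagulation genes (28 tested) had 5 higher and 0 lower, or 2 and 0, and acute-phase genes (21 tested) 3 higher and 0 lower in both fits.

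**Figure D4:**
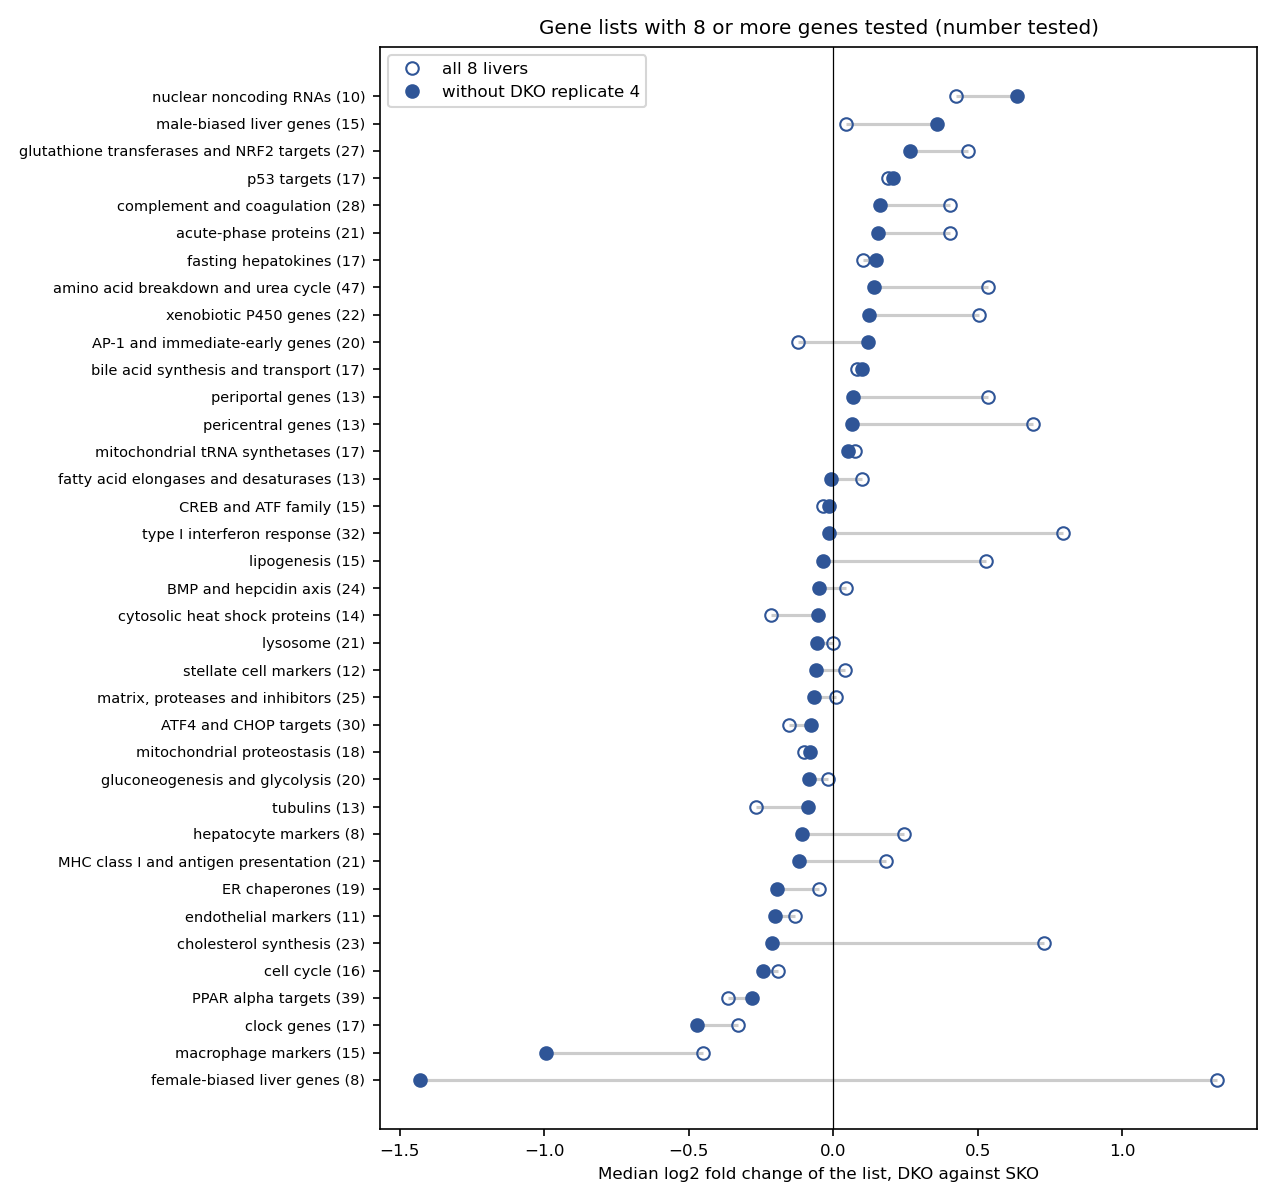
Median log2 fold change (DKO over SKO) of each gene list with 8 or more genes tested, with all 8 livers (open) and without DKO replicate 4 (filled). The lists of female-biased, cholesterol synthesis and type I interferon genes moved furthest toward lower values when that liver was left out, and macrophage markers and clock genes were lower in both fits.

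Macrophage markers were lower in DKO replicates 1 to 3. Of 15 tested, 10 were lower and 0 higher at an unadjusted p under 0.05 without DKO replicate 4 (median log2 fold change −0.99, against 3.45% lower over all genes), and 3 and 0 with it (−0.45, against 2.38%). In the livers with Y-linked counts, where Itgax was not tested, 5 of 14 were lower and 0 higher (−0.72, against 3.02%). The summed level of the markers was 283 to 605 CPM in SKO livers, 182 to 273 in DKO replicates 1 to 3, 548 in DKO replicate 4 and 276 to 531 in WT livers. None of the 15 was at 0 in all 8 livers. Gpnmb, a transmembrane glycoprotein of lipid-laden macrophages, was at 54.1, 36.9, 26.3 and 27.5 CPM in SKO and 12.5, 9.71, 23.3 and 0.595 in DKO livers, without overlap, against 0 to 0.509 in WT. The lysosomal glycoprotein gene Cd68 was at 33.2, 54.1, 24.1 and 42.6 CPM in SKO and 21.3, 11.5, 25.3 and 9.62 in DKO livers, with WT at 5.67 to 11.1. For both genes DKO replicate 4 was the lowest DKO liver, and for Cd68 DKO replicate 3 lay above SKO replicate 3. Trem2, Cd9 and Spp1 of the same list had an unadjusted p above 0.05 in both fits (edgeR). Their log2 fold changes were −0.45, −0.09 and 0.81 in all 8 livers and −0.49, 0.01 and 0.24 without DKO replicate 4.

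Markers of resident Kupffer cells had DKO replicate 4 as the highest DKO liver. Clec4f, Vsig4, Timd4 and Cd5l were chosen after their values were seen. Clec4f was at 101, 75.7, 96.02 and 52.1 CPM in SKO and 39.7, 61.1, 58.9 and 141 in DKO livers, Vsig4 at 26.4, 16.4, 30.95 and 12.7 and 7.44, 14.6, 8.03 and 34.2, and Cd5l at 96.3, 56.3, 163 and 50.7 and 26.6, 52.1, 45.7 and 115. Timd4 was at 2.399 to 11.9 CPM in SKO, 1.01 to 2.85 in DKO replicates 1 to 3 and 8.49 in DKO replicate 4. SKO livers also differed from each other, and the scavenger receptor gene Marco stood at 6.28, 5.11, 46.8 and 1.23 CPM in SKO against 1.98, 2.06, 2.11 and 5.78 in DKO replicates 1 to 4. The lectin, fatty acid binding protein and lipoprotein receptor genes Lgals3, Fabp4 and Apobr described above are also expressed by macrophages, and the part of the macrophage markers in their values was not tested. Summed markers of other cells overlapped between SKO and DKO livers, at 361 to 457 against 301 to 441 CPM for 11 endothelial genes and 285 to 395 against 255 to 366 for 13 stellate cell genes. Cholangiocyte markers (8 genes) summed to 7.81 to 15.2 against 10.4 to 32.4 CPM, lymphocyte markers (10) to 6.22 to 17.5 against 6.28 to 23.3, neutrophil markers (6) to 2.18 to 4.97 against 2.22 to 4.12 and erythroid genes (5) to 155 to 529.6 against 126 to 722. None of those tested had an unadjusted p under 0.05 in either fit with edgeR.

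Circadian clock genes differed in DKO replicates 1 to 3. The core loop pairs the activators CLOCK and BMAL1 (Arntl) with their repressors PER and CRY, and output genes such as Dbp follow it. Of 17 tested, 3 were higher and 7 lower without DKO replicate 4 (median log2 fold change −0.47, against 3.77% and 3.45% over all genes), and 3 and 1 with it (−0.33, against 4.11% and 2.38%). Arntl was at 3.07, 1.32, 2.43 and 5.58 CPM in SKO, 13.96, 18.6 and 8.49 in DKO replicates 1 to 3 and 2.92 in DKO replicate 4. Nfil3, a repressor of D-box genes, was at 8.58, 5.72, 5.901 and 5.36 CPM in SKO and 13.3, 17.9, 11.7 and 9.84 in DKO livers and did not overlap (log2 fold change 1.04 (SE 0.23)). Clock was at 23.02 to 51.04 CPM in SKO, 57.4 to 97.4 in DKO replicates 1 to 3 and 47.6 in DKO replicate 4.

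The lower clock genes were outputs and repressors. Usp2, a deubiquitinase gene with strong daily cycling that is not on the list, was at 55.003, 45.1, 54.3 and 16.1 CPM in SKO, 7.49, 3.76 and 6.74 in DKO replicates 1 to 3 and 38.7 in DKO replicate 4. It passed the adjusted threshold without DKO replicate 4 (log2 fold change −2.83 (SE 0.41), adjusted p = 0.03203) and in the livers with Y-linked counts (0.0296), and not in all 8 livers (0.749, edgeR, Benjamini-Hochberg). Dbp, Per3 and Ciart were chosen after their values were seen. Dbp was at 100.2, 92.6, 40.5 and 50.8 CPM in SKO and 10.2, 3.76, 37.1 and 105 in DKO livers, and Per3 at 45.1, 33.3, 48.1 and 24.996 and 11.8, 3.702, 17.9 and 38.9. Ciart was at 6.36 to 21.96 CPM in SKO, 2.73 to 6.09 in DKO replicates 1 to 3 and 18.3 in DKO replicate 4. For all 3 the DKO replicates 1 to 3 lay below every SKO liver. Per2 was at 37.1, 45.3, 60.7 and 20.5 CPM in SKO and 21.5, 11.7, 29.9 and 23.4 in DKO livers, with overlap. The hour at which each liver was taken is not in the labels, so genotype and time of day cannot be told apart for a single liver, although the study's methods give one clock time for the end of a fast.

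**Figure D5:**
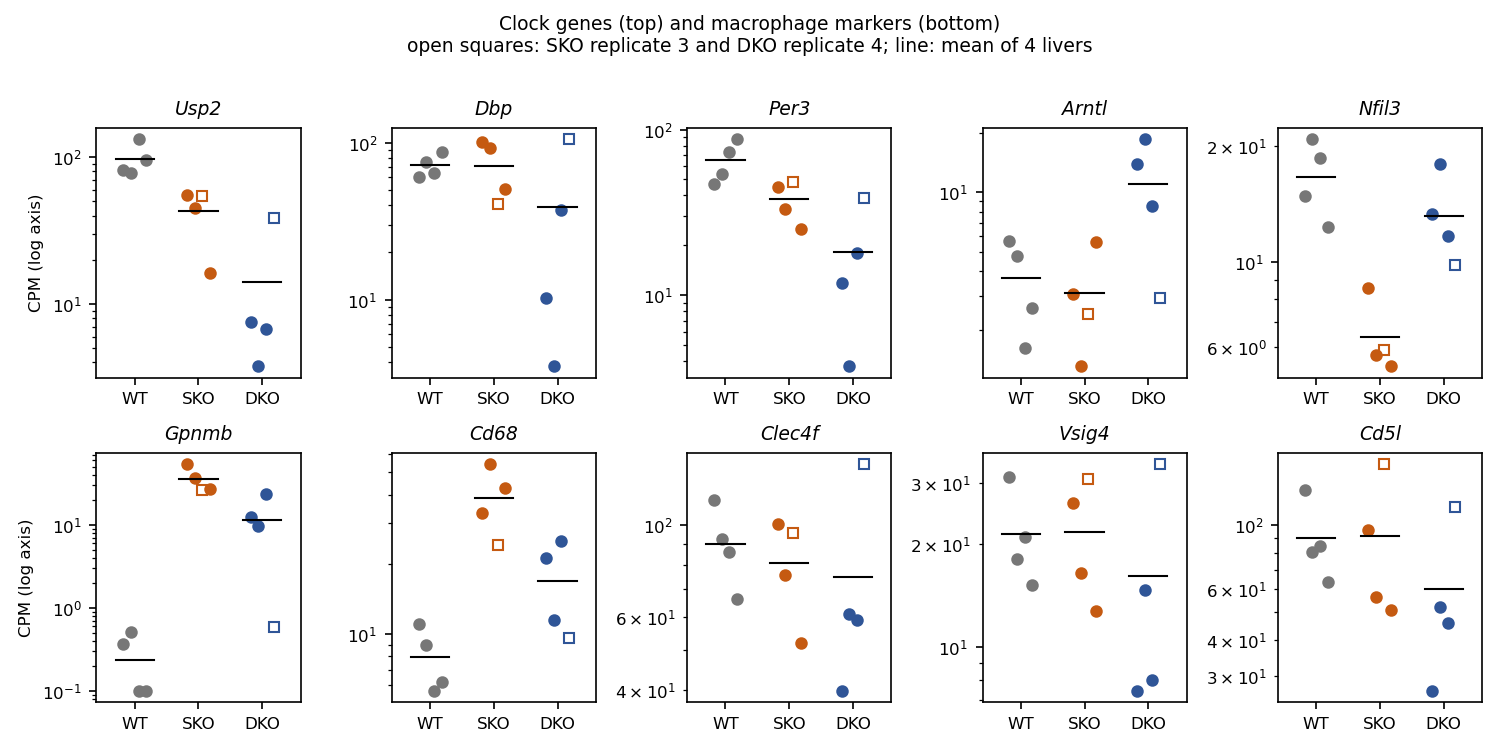
CPM (log axis) per liver in WT, SKO and DKO groups of 4 for clock genes (top) and macrophage markers (bottom), with values under 0.1 drawn at 0.1, the mean as a line and SKO replicate 3 and DKO replicate 4 as open squares. For Usp2, Dbp and Per3 the DKO replicates 1 to 3 lie below all SKO livers, while DKO replicate 4 lies among or above them, and for Clec4f and Vsig4 DKO replicate 4 is the highest of the 8 livers.

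Stress and transcription factor lists had few members past the unadjusted threshold. Over all genes 4.11% were higher and 2.38% lower at it, or 3.77% and 3.45% without DKO replicate 4. Of 30 targets of ATF4 and CHOP, which carry the integrated stress response, 1 was higher and 0 lower in all 8 livers (Cth), and 3 higher and 1 lower without DKO replicate 4. Gdf15, a stress-induced hormone gene among them, was at 51.7, 55.2, 67.2 and 39.2 CPM in SKO, 95.6, 112 and 94.3 in DKO replicates 1 to 3 and 31.9 in DKO replicate 4. Without the latter liver all DKO livers were above all SKO livers, at a log2 fold change of 0.91 (SE 0.18) and an adjusted p of 0.137 (edgeR, Benjamini-Hochberg). Cth, a gene of cysteine synthesis, was at 51.3 to 111 CPM in SKO, 74.2 to 126 in DKO replicates 1 to 3 and 697 in DKO replicate 4. Of 20 AP-1 and immediate-early genes, 1 was higher and 0 lower (Zfp36), and of 15 other CREB and ATF family genes 0 had an unadjusted p under 0.05 in edgeR in either fit. Tubulin genes (13 tested) and lysosome genes (21 tested) likewise had 0 members at that threshold in either fit. Of 16 cell cycle genes, 2 were lower in both fits, with 0 higher in all 8 livers and 1 (Mcm7) without DKO replicate 4. They were the cyclin E1 gene Ccne1 at 1.12 to 1.79 against 0.182 to 0.721 CPM and the replication helicase subunit gene Mcm6 at 4.23 to 5.97 against 2.67 to 3.68, both without overlap. Nnt, which differs between C57BL/6 substrains, was at 2.03 to 2.97 CPM in DKO and 1.62 to 2.12 CPM in SKO livers, with WT livers at 1.53 to 1.87.

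The remaining lists had at most 4 members past the unadjusted threshold. Fasting hepatokines (17 tested) had 4 higher and 0 lower, or 3 and 0 without DKO replicate 4, a list of nuclear noncoding RNAs that also holds the protein-coding Lars2 (10 tested) 3 and 0, or 4 and 0, and 7SK, RNase P and other structural RNAs (2 tested) 2 and 0 in both fits. Bile acid synthesis and transport (17 tested) had 2 higher and 0 lower, or 1 and 0, and gluconeogenesis and glycolysis (20 tested) 2 and 1, or 1 and 0. ER chaperones (19 tested) had 0 higher and 1 lower, or 0 and 3, heat shock proteins of the cytosol (14 tested) 0 and 1, or 0 and 0, and mitochondrial proteostasis genes (18 tested) 1 and 1, or 1 and 0. Elongases and desaturases (13 tested) had 0 higher and 1 lower, or 1 and 2, the BMP and hepcidin axis (24 tested) 1 and 1, or 0 and 1, and matrix proteins, proteases and inhibitors (25 tested) 0 and 2 in both fits. For p53 targets (17 tested) the counts were 0 and 2, or 2 and 1, for male-biased genes (15 tested) 0 and 0, or 1 and 0, for hepatocyte markers (8 tested) 0 and 0 in both fits, and for substrain-differing genes (6 tested) 0 and 1, or 0 and 0. Over all genes the shares were 4.11% higher and 2.38% lower, or 3.77% and 3.45%.

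The genes that moved most when DKO replicate 4 was left out included female-biased ones. Among the 8 genes of mean CPM at least 5 whose log2 fold change moved most without it were Cyp2a4, Hamp2, Cyp2c40, Serpina6, 9030619P08Rik, Akr1d1 and Cux2. Cyp2a4, a steroid hydroxylase gene higher in female livers, was at 3.01, 27.2, 138 and 0.6695 CPM in SKO and 0.193, 0.182, 1.39 and 432 in DKO replicates 1 to 4. SKO replicate 3 and DKO replicate 4, the livers with Xist counts, stood above the rest, and the log2 fold change turned from 1.39 to −6.15 without DKO replicate 4. Serpina6, which encodes corticosteroid-binding globulin, and Akr1d1, the steroid 5-beta reductase gene, were at 3.24 to 19.1 and 4.705 to 27.2 CPM in SKO livers. In DKO replicates 1 to 3 they were at 2.73 to 6.86 and 5.27 to 7.72, and in DKO replicate 4 at 263 and 289. SKO replicate 3 had 8.44 and 27.2 CPM of them, so DKO replicate 4 differed in these genes from the other liver with Xist counts. Hamp2, a hepcidin gene, was at 0.0558 to 1.81 CPM in SKO, 0.303 to 0.926 in DKO replicates 1 to 3 and 67.8 in DKO replicate 4. The P450 gene Cyp2c40 was at 1.34, 0.658, 57.8 and 3.68 CPM in SKO and 7.88, 2.97, 1.34 and 238 in DKO livers, and Cux2, a female-biased transcription factor gene, at 0.223 to 2.95, 0.435 to 0.978 in DKO replicates 1 to 3 and 33.4 in DKO replicate 4. The unnamed gene 9030619P08Rik was at 0 to 3.99, 0.725 to 0.971 and 39.1 CPM in the same order. Of 8 tested female-biased genes 0 were higher or lower at an unadjusted p under 0.05 in all 8 livers with edgeR, and 3 were lower without DKO replicate 4 (2.38% and 3.45% lower over all genes), when SKO replicate 3 is the single liver with Xist counts left in the fit.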

How the data were processed

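RNA-seq was run on fasted mouse liver, 4 livers per genotype. The values used are raw read counts per gene, as the authors deposited them. The submitters' processing notes name HISAT2, GRCm38 and mm10. The counting program and annotation are not given in the sources used here, and 2.85% of the 52073 gene starts shared with a GRCm38 annotation were equal, so coordinates of genes are given as in the count table and promoters, matched by symbol, in GRCm38.p6. A deposited FPKM table and tables of the authors' own log2 fold changes and p-values were not used.

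Groups came from the genotype labels. Genes passing filterByExpr were tested with edgeR 4.0.16 in R 4.3.3 (TMM normalization, quasi-likelihood test, two-sided, no covariate), with Benjamini-Hochberg adjustment over all genes tested. CPM was scaled by TMM over the 12 livers. Shares of counts were compared by exact permutation tests. The tests were checked on simulated counts. Members and lists were chosen with earlier results of these data known. The text names genes with an adjusted p under 0.05 with or without DKO replicate 4, the 12 largest differences each way under the filters given in the text, genes from the 4 smallest p-values of each of 43 lists, genes among the 8 that moved most without DKO replicate 4, neighbours of Atf3, and checks. Genes outside this rule are said to be so, and members listed by name without values are those past the unadjusted threshold. Some results are not reported here. Where a symbol had several rows, that with most counts was used. The alternatives were each liver left out, the livers with Y-linked counts, Xist as a covariate, a replicate block, RLE normalization, no filter, all 12 livers in 1 fit, DESeq2 1.42.0 and voom with quality weights in limma 3.58.1. No 2 libraries of a KO group were copies of each other (lowest chi-square per degree of freedom of a pair, 27.7).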

Additional observations from a re-analysis of the deposited data

Results flagged for a closer look

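Values are given here where the highest or lowest liver of a group of 4 stood further from the rest than Dixon's 95% critical value allows. Over the 86 genes, the shares of counts and the summed markers, 198 groups were tested and 33 livers exceeded it, where chance flags about 1 in 20 groups. Some of these genes are in the text because they moved most when DKO replicate 4 was left out, so the number is a description and not a test. DKO replicate 4 accounted for 20, SKO replicate 3 for 5 and the other livers for 8.

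DKO replicate 4 was the highest of its group in most of the genes it stood apart in. It had 75278 CPM of Alb, 94764 CPM of summed hepatocyte markers, 319.8 of Gckr, 447 of Haao, 1018 of Cyp1a2, 1730.2 of Gstm1, 103 of Gstm3, 486 of Abcb11, 697 of Cth and 38.7 of Usp2. It was also highest in Serpina6 (263 CPM), Akr1d1 (289), Hamp2 (67.8), 9030619P08Rik (39.1), Cyp2a4 (432), Cux2 (33.4) and the macrophage receptor gene Marco (5.78), and lowest in Adcy1 (0.703).

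Both livers with Xist counts stood apart in Xist, at 935 CPM in SKO replicate 3 and 1127 in DKO replicate 4, and in Cyp2c40, at 57.8 and 238. SKO replicate 3 was further the highest of its group in Marco (46.8 CPM) and in the summed markers of stellate (395) and endothelial cells (457).

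Among the other livers, SKO replicate 1 was lowest in Gstm2 (10.1 CPM) and highest in Nr0b2 (3.78) and Nfil3 (8.58). SKO replicate 2 was lowest in Clock (23.02) and highest in Mcm6 (5.97), and SKO replicate 4 was lowest in the macrophage integrin gene Itgax (0.279). DKO replicate 1 had the lowest percent of counts on mitochondrial rRNA genes (0.04897%), and DKO replicate 3 the highest sum of erythroid genes (722 CPM).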

How the results depend on the processing

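The number of genes at an adjusted p under 0.05 ranged from 0 to 15 as each liver was left out, against 3 in all 8. It was 0 without DKO replicates 1 or 3 or SKO replicates 2, 3 or 4, and 15 without DKO replicate 4. It was 21 in the livers with Y-linked counts, 9 with Xist counts (present or not) as a covariate, 35 with no filter on low counts, 97 with DESeq2 and 14 with voom and quality weights, which gave DKO replicate 4 the lowest weight (0.237). It stayed within 1.5 times of 3 with RLE normalization (3) and all 12 livers in 1 fit (4). With the replicate number as a block, edgeR called 0 genes, with 397 higher and 246 lower at an unadjusted p under 0.05, but the numbers did not pair the livers (same-number correlations of −0.0554, 0.061, −0.244 and −0.341, and 0.406 between DKO replicate 4 and SKO replicate 3). Lars2, Bmper and H2-T-ps kept their direction in each alternative, with adjusted p-values of 0.00340 to 0.199, 0.00742 to 0.199 and 0.00340 to 0.199 as each liver was left out (edgeR, Benjamini-Hochberg). Over 83 genes, 623 of 664 values with a liver left out and 571 of 663 under other settings kept direction and side of the threshold. Only 3 genes passed the threshold in all 8 livers, so the others could not lose it. All 19 values that lost it with a liver left out came from those 3 genes. For 645 of 688 list medians the value moved by less than the spread.

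The excess of the ribosomal RNA share in DKO livers ranged from 0.855 to 1.32 percentage points as each liver was left out. Its exact permutation p was 0.0286 without DKO replicate 1 and 0.114 without SKO replicate 2 or 3. In the livers with Y-linked counts the excess was 0.80 percentage points (exact p = 0.2). The difference in the mitochondrial rRNA share ranged from −0.0663 to −0.0333, with an exact p of 0.0571 without any 1 DKO liver, and was −0.0672 (exact p = 0.1, the smallest possible) in the livers with Y-linked counts. That of TEC genes ranged from 0.0167 to 0.0232, with an exact p of 0.0571 without DKO replicate 3 or SKO replicates 2 or 4, and was 0.0224 (exact p = 0.1) in the livers with Y-linked counts.

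Direction changed for 10 genes, and the cause was not tested. As each liver was left out, log2 fold changes ranged over −0.16 to 0.03198 for Cpt2, −0.26 to 0.51 for Alb, −0.62 to 0.11 for Clec4f, −6.15 to 3.41 for Cyp2a4, −0.41 to 5.13 for Hamp2, −1.97 to 5.06 for Cyp2c40, −1.06 to 3.48 for Serpina6, −0.95 to 3.80 for 9030619P08Rik, −0.88 to 3.59 for Akr1d1 and −1.31 to 2.72 for Cux2. In the livers with Y-linked counts Alb was at −0.0488, Cyp2a4 at −4.11, Serpina6 at −1.11, Akr1d1 at −0.0177 and Cux2 at −0.97. With quality weights Cpt2 was at 0.00191, Alb at −0.0477, Cyp2a4 at −4.54, Serpina6 at −0.53, Akr1d1 at −0.53 and Cux2 at −1.003. With the Xist covariate Cyp2a4 was at −2.53 and Serpina6 at −0.00123, and with the replicate block Cyp2a4 was at −4.32, Serpina6 at −0.24 and Cux2 at −0.36. Reads on genes with few counts, such as Fam71a in SKO livers, limit folds to bounds.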
